A study of Mus musculus with 4 samples.

Results

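The genes of DNA replication and of deoxynucleotide synthesis are the subject here: 53 named genes, picked by symbol, out of 52636 mouse genes with a read count in each library. They cover the origin recognition complex, the licensing factors, the MCM helicase and its activators, the replicative polymerases, the sliding clamp and its loader, the single-strand binding protein, the ligation step, fork protection, chromatin assembly and the enzymes that make deoxynucleotides. All 53 symbols were found once in the count data, and 52 of them had enough reads to be tested. The question was whether their mRNA levels differed between tdTomato+ kidney cells of 2 genotypes, control and *Eya1*cKO, the second with the transcriptional coactivator gene *Eya1* deleted after tamoxifen.

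Each cell has to copy its genome once per division. In G1 the origin recognition complex, Cdc6 and Cdt1 load the ring of Mcm2 to Mcm7 onto origins, and geminin blocks a repeat of this loading after S phase has begun. Cdc45 and the GINS complex then turn the ring into an active helicase, polymerases alpha, delta and epsilon copy the strands behind it, and ribonucleotide reductase and thymidylate synthase supply the building blocks. Many of these genes are transcribed around the G1/S transition under E2F control, so the mRNAs are widely read as markers of dividing cells. Nephron progenitor cells of the embryonic kidney are a dividing population, whereas podocytes leave the cell cycle as they mature.

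RNA was sequenced from 2 libraries per genotype, control 1 and 2 and *Eya1*cKO 1 and 2, each from 5000 tdTomato+ cells sorted by FACS about 48 h after tamoxifen was first given to the dams. Both genotypes were kept on a mixed C57BL/6J and 129/Sv background, carried the *Eya1*CreER knock-in allele and a Cre-dependent *R26-tdTomato* reporter, and received tamoxifen; only the *Eya1*cKO embryos carried floxed *Eya1* (*Eya1* fl/fl). Embryos of both genotypes were taken at E12.5 to E12.75. Because the CreER is expressed from the *Eya1* locus, the reporter marks cells that expressed *Eya1* at the time of tamoxifen and their descendants. Suspensions of several embryos were combined before the sort, so the libraries of a genotype are separate portions of sorted cells, and *P* values measure the spread between such portions. The reads counted on genes ranged from 17457452 to 37999342 per library and were fewer in *Eya1*cKO. Unaligned reads were 6.32% and 6.69% of the reads recorded in the controls and 12.9% and 12.7% in *Eya1*cKO. *Eya1* itself was at 189 and 171 CPM in control against 16.7 and 12.5 CPM in *Eya1*cKO libraries, giving a log2 change of -3.60 (SE 0.18, edgeR adjusted *P* = 1.95e-04). These counts cover all exons and do not separate the floxed from the intact transcript.

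Markers of nephron progenitors and of other cell types moved with the genotype. The summed level of 8 nephron progenitor markers was 2110.4 and 2129.9 CPM in control against 806 and 828 CPM in *Eya1*cKO libraries, with 7 of the 8 lower and *Wt1* the exception. Summed over 6 podocyte markers it was 505 and 515 CPM in control against 2357 and 2352 CPM in *Eya1*cKO libraries, with all 6 higher. The 8 endothelial markers all rose as well (660.2 and 676 CPM in control against 1185 and 1228 CPM in *Eya1*cKO libraries). Of 7 adrenal cortex markers 6 rose (15.6 and 11.3 CPM in control against 698 and 670.3 CPM in *Eya1*cKO libraries), and the seventh, *Cyp17a1*, had at most 3 reads in any library. All 8 sympathoadrenal markers rose (6.01 and 8.71 CPM in control against 554 and 586 CPM in *Eya1*cKO libraries). Of 7 renal stroma markers 4 rose and 1 fell (760.5 and 751 CPM in control against 1095 and 1099 CPM in *Eya1*cKO libraries), and of 8 ureteric bud markers 2 fell (203 and 207 CPM in control against 123 and 105 CPM in *Eya1*cKO libraries). Of 5 macrophage markers none passed in edgeR, at an unadjusted *P* under 0.05 or in DESeq2 (90.3 and 91.5 CPM in control against 76.6 and 102 CPM in *Eya1*cKO libraries), and of 6 Schwann cell precursor markers 1, *Sox10*, rose (28.0 and 26.4 CPM in control against 32.2 and 28.7 CPM in *Eya1*cKO libraries). The 6 erythroid markers were too low to be tested, the 4 globin genes having between 0 and 3 reads in any library. The marker calls also depended on single libraries: without control 1 or control 2, 4 and 3 nephron progenitor markers fell, 2 and 3 podocyte, 1 and 1 adrenal cortex and 2 and 2 sympathoadrenal markers rose, and none of the endothelial, stroma, ureteric bud and Schwann cell precursor lists passed in edgeR. With either *Eya1*cKO library left out, calls in the ureteric bud list and in some other lists changed as well. Those fits called many more of all genes tested in both directions, so their calls are not read as results on cell types. The part of these cell types in the levels of the replication genes was not tested. In such bulk libraries, fewer cells with an mRNA and less of that mRNA per cell cannot be told apart.

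The replication genes were lower in *Eya1*cKO. Of the 52 tested, 23 fell with an adjusted *P* under 0.05 in edgeR's quasi-likelihood test and none rose (none at an unadjusted *P* under 0.05 either, and 1, *Gmnc*, with DESeq2), which is 44.2% lower and 0% higher; of all 19041 genes tested, 4.41% were called lower and 5.15% higher. The log2 fold change (*Eya1*cKO over control) was negative for 48 of the 52 (92.3%), against 48.9% of all genes tested. Its median was -0.56 over these genes and 0.016 over all genes. For 40 of the 52 genes the higher *Eya1*cKO library was still below the lower control, an arrangement seen in 30.0% of all genes tested. The opposite arrangement held for 1 gene, *Rfc3*, and for 25.3% of all genes. In either direction, 9.56% of all genes tested were called. Levels are given in CPM, which are read counts scaled to a common library size by TMM. Log2 fold changes are written as log2 changes, and n = 2 libraries per genotype throughout.

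Summed over all 53 genes, the level was 5881 and 5972 CPM in control against 3900.2 and 3955 CPM in *Eya1*cKO libraries, which is 66.3% of control. The 2 libraries of each genotype lay close to each other in this sum, and the genotypes were well apart. By role, the summed level that remained ran from 58.3% of control for the deoxynucleotide enzymes to 83.7% for the origin recognition complex. The 23 genes that fell kept between 39.5% (*Rpa2*) and 71.0% (*Mcm4*) of their control level. Their median control level was 152 CPM against 46.7 CPM for the 29 that did not pass. The standard errors had medians of 0.12 and 0.21. Among the 29 genes that did not pass, 25 had a negative log2 fold change and 9 had a 95% interval below 0. With these 9, 32 of the 52 were lower at an unadjusted *P* under 0.05 in edgeR, where 14.6% of all genes tested were lower. The interval of 25 of the 29 included the median of the whole list, as did that of 19 of the 23 that fell. That median was taken from these same genes, so this cannot show that they fell alike.

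These calls depended on which libraries were in the fit. Without control 1 or without control 2, 0 of the 53 genes passed, in edgeR fits that called 8 and 7 of all genes lower and took the spread from the *Eya1*cKO pair alone. At an unadjusted *P* under 0.05, 24 and 21 of the 53 were lower in these fits, where 4.21% and 3.93% of all genes were lower at that unadjusted threshold. Without *Eya1*cKO 1, 34 fell and 4 rose, in a fit that called 3271 of 22134 genes lower and 4143 higher. Without *Eya1*cKO 2, 38 fell and 0 rose, where 3482 of 22440 genes were called lower and 4443 higher. The median log2 fold change lay between -0.63 and -0.57 in these 4 fits with 1 library left out.

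**Figure D1:**
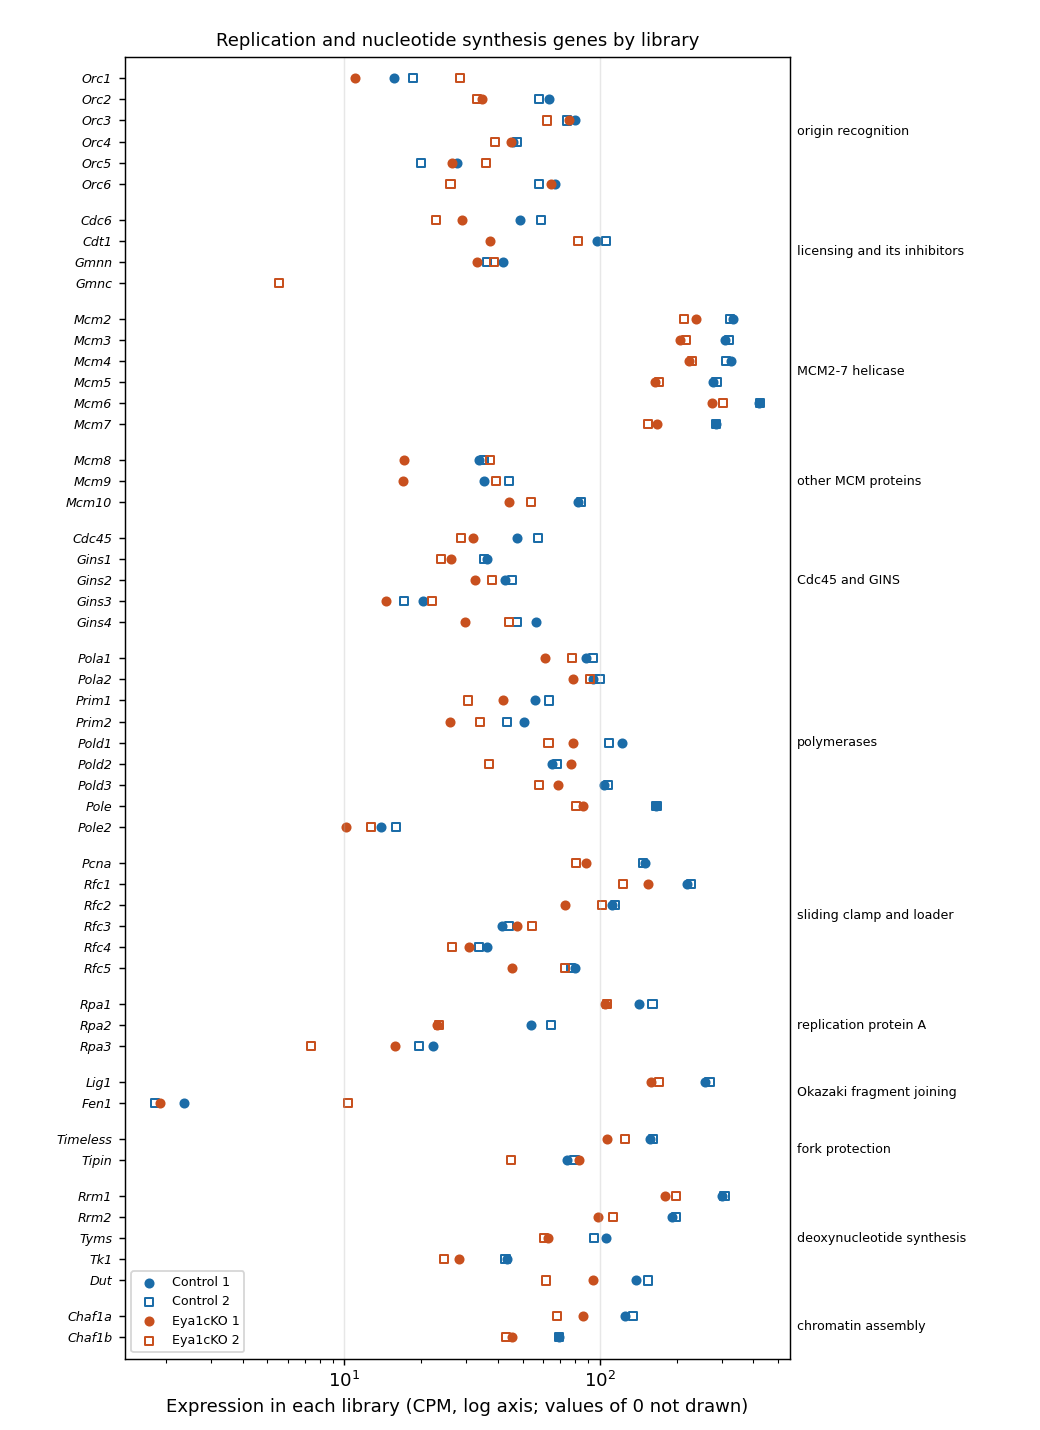
Level of each replication and nucleotide synthesis gene (rows, grouped by role) in each library, in CPM on a log axis, with control 1 and 2 in blue and *Eya1*cKO 1 and 2 in orange. The 6 helicase genes lie between 282 and 422 CPM in the control means, and for 40 genes both orange symbols lie to the left of both blue ones.

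**Figure D2:**
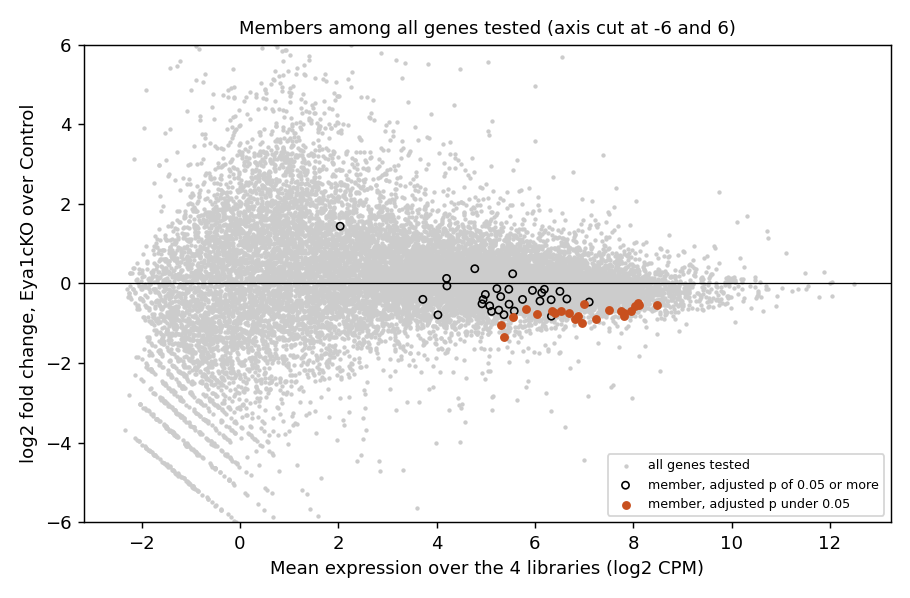
Log2 fold change against mean level (log2 CPM over the 4 libraries) for all 19041 genes tested (grey, with the vertical axis cut at -6 and 6), the 23 replication genes with an adjusted *P* under 0.05 (orange) and the 29 without (open circles). The replication genes form a band below 0, and the ones that passed lie mostly towards the higher levels.

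Promoter sequence is shown for 4 genes, because E2F control is the textbook link among them and the rule that picked the genes did not use it. RefSeq promoters (GRCm38.p6, from 250 bases before to 50 after a start) were at hand for 44 of the 53 genes. The E2F letters TTTGGCGC, TTTCCCGC, TTTGCCGC or TTTCGCGC, on either strand and allowed to overlap, were found in 16 of them (36.4%), against 2.6% of 27025 genes with such a promoter. The CCAAT box, searched likewise, was in 61.4% and 41.1%. E2F letters were present in 8 of 21 genes that fell and in 8 of 22 that did not pass. A match describes the sequence and is not a measured binding site. Each stretch below ends at the base before the RefSeq start and reads 5′ to 3′, with E2F letters in capitals for *Mcm5* (chr8:75109346-75109508, plus strand), *Mcm6* (chr1:128359706-128359825, minus strand) and *Pola1* (chrX:93632156-93632303, minus strand) and the CCAAT box in capitals for *Rrm2* (chr12:24708154-24708253, plus strand).
Mcm5: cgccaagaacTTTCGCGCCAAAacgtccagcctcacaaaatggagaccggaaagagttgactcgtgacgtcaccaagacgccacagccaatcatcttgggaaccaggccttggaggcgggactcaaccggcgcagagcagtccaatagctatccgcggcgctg
Mcm6: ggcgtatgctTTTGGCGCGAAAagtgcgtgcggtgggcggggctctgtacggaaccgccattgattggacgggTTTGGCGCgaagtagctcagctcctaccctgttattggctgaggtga
Pola1: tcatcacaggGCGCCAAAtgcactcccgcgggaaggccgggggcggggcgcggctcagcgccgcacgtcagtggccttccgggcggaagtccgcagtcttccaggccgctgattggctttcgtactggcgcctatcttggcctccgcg
Rrm2: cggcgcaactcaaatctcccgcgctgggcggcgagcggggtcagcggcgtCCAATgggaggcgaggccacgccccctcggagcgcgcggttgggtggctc
In *Mcm5* the 2 matches overlap and read the same element from both strands. *Mcm6* holds such a double match and a further one nearer the start. *Mcm5* and *Mcm6* fell, *Pola1* with 1 match did not pass, and *Rrm2*, which fell, had a CCAAT box and none of the E2F letters in this window. The stretches of *Mcm5*, *Mcm6* and *Pola1* hold CCAAT boxes as well, left in lower case.

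All 6 genes of the replicative helicase fell. Mcm2 to Mcm7 form the hexameric ring that is loaded at origins in G1 and unwinds DNA in S phase. Their log2 fold changes ran from -0.82 to -0.50, with 95% intervals that all overlapped. *Mcm7* (chromosome 5, 138164583 to 138172422 of GRCm38) was at 284 and 286 CPM in control 1 and 2, against 168 and 155 CPM in *Eya1*cKO 1 and 2. On the log2 scale it changed by -0.82 (SE 0.088, edgeR adjusted *P* = 0.00336). In both *Eya1*cKO libraries *Mcm7* was well below either control, and 56.6% of the control level remained; 12.6% of its exonic length is shared with other genes, among them the microRNA genes *Mir25* and *Mir93*. *Mcm5* (chromosome 8, 75109569 to 75128439) was at 277 and 287 CPM in control 1 and 2, against 164 and 171 CPM in *Eya1*cKO 1 and 2. The second largest fall of the 6 was this one, -0.75 (SE 0.085, edgeR adjusted *P* = 0.00399). *Mcm6* (chromosome 1, 128331590 to 128359664), the most abundant of the 6 in CPM, was at 419 and 425 CPM in control 1 and 2, against 274 and 304 CPM in *Eya1*cKO 1 and 2. Both *Eya1*cKO libraries were below both controls, and the log2 fold change was -0.55 (SE 0.080, edgeR adjusted *P* = 0.00953).

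*Mcm3* was at 309.7 and 321 CPM in control against 206 and 218 CPM in *Eya1*cKO libraries, giving a log2 change of -0.58 (SE 0.082, edgeR adjusted *P* = 0.00866). *Mcm2* was at 334 and 323 CPM in control against 238 and 213 CPM in *Eya1*cKO libraries, with -0.54 (SE 0.087, edgeR adjusted *P* = 0.0137). *Mcm4* was at 328 and 312 CPM in control against 224 and 230.1 CPM in *Eya1*cKO libraries, with -0.50 (SE 0.080, edgeR adjusted *P* = 0.0136). For each of these genes the lowest control library was above the highest *Eya1*cKO library. Per kilobase of exonic length, the control levels of the 6 genes ran from 47.2 CPM per kb for *Mcm2* to 90.4 CPM per kb for *Mcm6*, and the *Eya1*cKO levels from 32.4 to 63.3 CPM per kb. The order of the genes by control level, *Mcm6*, *Mcm4*, *Mcm3*, *Mcm5*, *Mcm7* and *Mcm2*, was nearly kept in *Eya1*cKO, where *Mcm4* and *Mcm6* changed places.

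**Figure D3:**
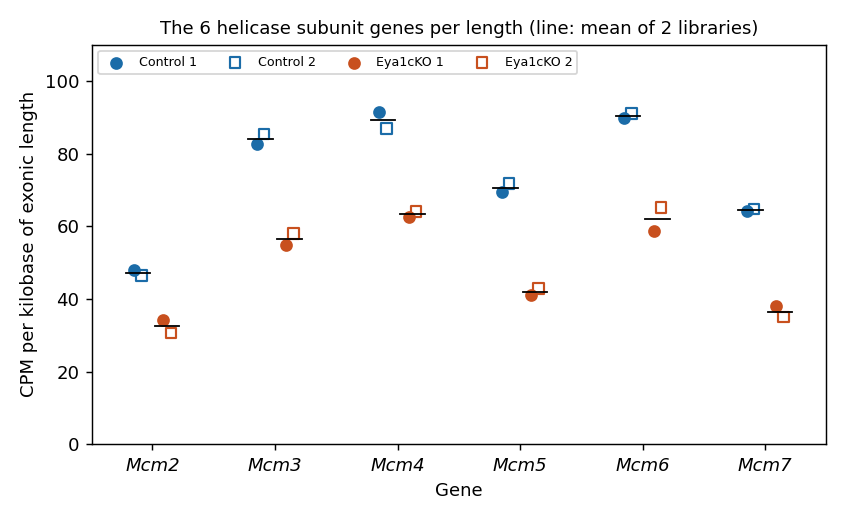
Level of the 6 helicase subunit genes per kilobase of exonic length (CPM per kb) in each library, with control libraries in blue, *Eya1*cKO libraries in orange and a black line at the mean of each genotype. For every gene both *Eya1*cKO libraries lie below both controls.

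Of the MCM proteins outside the ring, *Mcm10*, which helps to start the helicase and to recruit polymerase alpha, fell. Its level was 82.4 and 84.6 CPM in control 1 and 2, against 44.3 and 53.9 CPM in *Eya1*cKO 1 and 2, giving a log2 change of -0.78 (SE 0.16, edgeR adjusted *P* = 0.0268). *Mcm8* and *Mcm9*, whose products form a separate helicase of homologous recombination, did not pass. *Mcm8* was at 33.8 and 35.1 CPM in control against 17.1 and 37.2 CPM in *Eya1*cKO libraries and *Mcm9* at 35.2 and 44.0 CPM in control against 17.0 and 39.2 CPM in *Eya1*cKO libraries, so that *Eya1*cKO 1 was low for both, while *Eya1*cKO 2 lay above the controls for *Mcm8* and between them for *Mcm9*. The log2 changes were -0.40 and -0.56 (edgeR adjusted *P* = 0.457 and 0.33). Exons of *Mcm9* overlap those of *Asf1a* on the opposite strand over 19.2% of their length.

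The origin recognition complex, which marks origins and recruits the loader, kept the largest share of its control level of the 12 role groups, and 1 of its 6 genes fell. That gene was *Orc2*, at 63.3 and 58.0 CPM in control 1 and 2, against 34.6 and 33.1 CPM in *Eya1*cKO 1 and 2, giving a log2 change of -0.84 (SE 0.17, edgeR adjusted *P* = 0.03); 29.8% of its exonic length is shared with *Nif3l1* on the opposite strand. *Orc3* and *Orc4* did not pass, with log2 fold changes of -0.15 and -0.15 (95% confidence interval -0.50 to 0.21 and -0.56 to 0.27). *Orc1*, the subunit whose level is cell cycle controlled, was at 15.6 and 18.6 CPM in control against 11.1 and 28.4 CPM in *Eya1*cKO libraries. *Orc6* was at 66.9 and 57.7 CPM in control against 64.4 and 26.1 CPM in *Eya1*cKO libraries. In both genes 1 *Eya1*cKO library was low and the other lay among or above the controls, in *Orc1* the second and in *Orc6* the first. *Orc5* was at 27.7 and 19.9 CPM in control against 26.4 and 35.7 CPM in *Eya1*cKO libraries and had a positive log2 fold change of 0.37 that did not pass (adjusted *P* = 0.425 by edgeR).

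Among the licensing factors, *Cdc6*, the ATPase that loads the ring together with the origin recognition complex, was the one gene that fell. It was at 48.8 and 58.8 CPM in control 1 and 2, against 28.8 and 22.9 CPM in *Eya1*cKO 1 and 2, giving a log2 change of -1.04 (SE 0.22, edgeR adjusted *P* = 0.0314), which leaves 48.1% of the control level. *Cdt1*, the partner of Cdc6 in loading, was at 97.4 and 106 CPM in control against 37.2 and 82.1 CPM in *Eya1*cKO libraries. Both *Eya1*cKO libraries were below the controls, but they differed from each other, and *Cdt1* did not pass (log2 fold change -0.82, edgeR adjusted *P* = 0.119). *Gmnn*, which encodes geminin, the inhibitor of Cdt1, overlapped between the genotypes at 42.0 and 36.1 CPM in control against 33.2 and 38.5 CPM in *Eya1*cKO libraries (log2 fold change -0.13, 95% confidence interval -0.61 to 0.35). *Gmnc*, a geminin-like gene of multiciliated cells, had 0 and 0 reads in control 1 and 2, against 0 and 97 in *Eya1*cKO 1 and 2. Reads of *Gmnc* were thus recorded in 1 library alone, and in the other 3 the limit that 3 counts allow was between 0.0801 and 0.133 CPM.

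Cdc45 and the 4 GINS proteins join the ring to form the active helicase. None of their 5 genes passed in edgeR with all 4 libraries and the main filter, and 1 fell with DESeq2. At an unadjusted *P* under 0.05 in edgeR 2 were lower, where 14.6% of all genes tested were lower. All 5 log2 changes were negative. In 4 genes both *Eya1*cKO libraries were below both controls, an arrangement seen in 30.0% of all genes tested. *Cdc45* came nearest, at 47.4 and 57.5 CPM in control 1 and 2, against 31.9 and 28.7 CPM in *Eya1*cKO 1 and 2, giving a log2 change of -0.79 (SE 0.20, edgeR adjusted *P* = 0.0591). It passed with DESeq2's test (adjusted *P* = 0.0147) and with a filter of 10 counts in every library (adjusted *P* = 0.0423). *Gins1*, *Gins2* and *Gins4* had log2 fold changes of -0.51, -0.33 and -0.52 with adjusted *P* values from 0.165 to 0.298 in edgeR. *Gins3* overlapped between the genotypes at 20.2 and 17.2 CPM in control against 14.6 and 22.0 CPM in *Eya1*cKO libraries (log2 fold change -0.063, 95% confidence interval -0.81 to 0.68). Of the exonic length of *Gins2*, 67.3% is shared with *Gse1* on the opposite strand.

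The polymerases copy the unwound strands: polymerase alpha with its primase starts each stretch, epsilon extends the leading and delta the lagging strand. All 9 genes had a negative log2 fold change and 3 passed, the catalytic subunits of epsilon and delta and a further delta subunit. *Pole* (chromosome 5, 110286306 to 110337474) was at 166 and 167 CPM in control 1 and 2, against 85.7 and 80.7 CPM in *Eya1*cKO 1 and 2, giving a log2 change of -0.996 (SE 0.11, edgeR adjusted *P* = 0.0034), and 50.01% of the control level remained. Its 2 controls were nearly equal, and the *Eya1*cKO libraries differed little. *Pold3* was at 104 and 108 CPM in control against 68.5 and 57.6 CPM in *Eya1*cKO libraries, with -0.74 (SE 0.14, edgeR adjusted *P* = 0.0214). *Pold1* was at 122 and 109 CPM in control against 78.3 and 63.0 CPM in *Eya1*cKO libraries, with -0.69 (SE 0.15, edgeR adjusted *P* = 0.0335). *Pold2* did not pass, with *Eya1*cKO 1 above and *Eya1*cKO 2 below the controls (64.9 and 68.3 CPM in control against 77.3 and 36.9 CPM in *Eya1*cKO libraries, log2 fold change -0.18, 95% confidence interval -0.84 to 0.49). The primase genes *Prim1* and *Prim2* were lower in both *Eya1*cKO libraries, with log2 fold changes of -0.69 and -0.67 that did not pass (adjusted *P* = 0.0816 and 0.105 by edgeR), and *Prim1* passed with DESeq2's test (adjusted *P* = 0.0435). *Pola1*, *Pola2* and *Pole2* had log2 fold changes of -0.41, -0.20 and -0.40, none of which passed.

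Proliferating cell nuclear antigen, the ring that keeps the polymerases on DNA, is encoded by *Pcna* (chromosome 2, 132249162 to 132253314), which fell. *Pcna* was at 150.3 and 148 CPM in control 1 and 2, against 88.2 and 80.7 CPM in *Eya1*cKO 1 and 2, giving a log2 change of -0.82 (SE 0.11, edgeR adjusted *P* = 0.00779). The mouse genome holds processed copies of *Pcna* (*Pcna-ps1* and *Pcna-ps2*) between which reads could have been split. Of the 5 genes of the clamp loader, *Rfc1* fell, at 219 and 228 CPM in control against 155 and 123 CPM in *Eya1*cKO libraries, with -0.67 (SE 0.12, edgeR adjusted *P* = 0.0186). *Rfc2*, *Rfc4* and *Rfc5* had both *Eya1*cKO libraries below the controls without passing (log2 fold changes -0.39, -0.28 and -0.44, adjusted *P* between 0.164 and 0.428 by edgeR). *Rfc3* had the opposite sign. It was at 41.4 and 44.1 CPM in control against 47.6 and 54.2 CPM in *Eya1*cKO libraries, the sole gene of the 53 with both *Eya1*cKO libraries above both controls, but the log2 change, 0.24, missed the threshold (95% confidence interval -0.16 to 0.65, edgeR adjusted *P* = 0.393).

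Replication protein A coats single-stranded DNA at the fork, and the gene of its middle subunit had the most negative log2 change of the 52 tested with all 4 libraries in edgeR. With 1 *Eya1*cKO library left out it did not: *Rpa3* was at -1.51 against -1.34 for *Rpa2* without *Eya1*cKO 1, and *Cdt1* at -1.47 against -1.37 without *Eya1*cKO 2. *Rpa2* (chromosome 4, 132768332 to 132778752) was at 53.7 and 64.4 CPM in control 1 and 2, against 23.1 and 23.5 CPM in *Eya1*cKO 1 and 2, giving a log2 change of -1.34 (SE 0.21, edgeR adjusted *P* = 0.0119). The 2 *Eya1*cKO libraries were nearly equal, at 39.5% of control on average. *Rpa1*, the large subunit, was at 142 and 161 CPM in control against 105 and 107 CPM in *Eya1*cKO libraries, with -0.52 (SE 0.12, edgeR adjusted *P* = 0.038). *Rpa3* was at 22.3 and 19.7 CPM in control against 15.8 and 7.41 CPM in *Eya1*cKO libraries. It was lower in both *Eya1*cKO libraries, which differed from each other, and did not pass (log2 fold change -0.79, edgeR adjusted *P* = 0.214). *Lig1*, the ligase that joins Okazaki fragments, was at 259 and 269 CPM in control 1 and 2, against 158 and 171 CPM in *Eya1*cKO 1 and 2, with -0.69 (SE 0.090, edgeR adjusted *P* = 0.00661). *Fen1*, the flap nuclease that acts before ligation, had 82 and 68 reads in control 1 and 2, against 43 and 182 in *Eya1*cKO 1 and 2, or 0.860 CPM per kb in the controls against 61.9 CPM per kb for *Lig1*. Exons of *Fen1* overlap *Tmem258* and *Gm10143* on the opposite strand over 84.2% of their length, reads that fall on several genes can be left out of such counts, and the strand setting of the counting is not given in the sources used here, so the level and the change of *Fen1* are uncertain (log2 fold change 1.44, 95% confidence interval -0.64 to 3.52).

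Timeless and Tipin form the complex that protects a stalled fork. *Timeless* was at 157 and 162 CPM in control 1 and 2, against 107 and 125 CPM in *Eya1*cKO 1 and 2. Both *Eya1*cKO libraries were below both controls, and the log2 fold change was -0.47 (SE 0.12, edgeR adjusted *P* = 0.0507). It lay just above the threshold and passed with DESeq2's test (adjusted *P* = 0.0236) and with a filter of 10 counts in every library (adjusted *P* = 0.03). *Tipin* overlapped between the genotypes at 74.6 and 79.7 CPM in control against 82.8 and 45.0 CPM in *Eya1*cKO libraries, with -0.23 (95% confidence interval -0.81 to 0.34).

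The enzymes of deoxynucleotide synthesis fell in 4 of 5 cases, with log2 fold changes within -0.90 and -0.69. Ribonucleotide reductase converts ribonucleotides into deoxyribonucleotides, and both genes of its S phase form fell. *Rrm2* (chromosome 12, 24708241 to 24714146), the small subunit, was at 192 and 199 CPM in control 1 and 2, against 98.2 and 113 CPM in *Eya1*cKO 1 and 2, giving a log2 change of -0.90 (SE 0.11, edgeR adjusted *P* = 0.00535). *Rrm1*, the large subunit, was at 301 and 308 CPM in control against 180.3 and 198 CPM in *Eya1*cKO libraries, with -0.69 (SE 0.087, edgeR adjusted *P* = 0.00604). Per length, *Rrm2* stood at 70.6 CPM per kb in the controls and *Rrm1* at 27.7 CPM per kb. *Rrm2b*, the small subunit that cells use outside S phase and which is not one of the 53, overlapped between the genotypes at 10.6 and 10.7 CPM in control against 16.1 and 4.28 CPM in *Eya1*cKO libraries (log2 fold change 0.035, 95% confidence interval -1.22 to 1.29). *Dut*, which removes dUTP and makes the precursor of dTMP, was at 139 and 154 CPM in control against 94.4 and 61.6 CPM in *Eya1*cKO libraries, with -0.89 (SE 0.18, edgeR adjusted *P* = 0.0295). *Tyms*, thymidylate synthase, was at 106 and 95.4 CPM in control against 62.7 and 60.8 CPM in *Eya1*cKO libraries, with -0.70 (SE 0.14, edgeR adjusted *P* = 0.0244); a processed copy, *Tyms-ps*, is annotated. *Tk1*, the thymidine kinase of the salvage route, was at 43.6 and 42.8 CPM in control against 28.1 and 24.5 CPM in *Eya1*cKO libraries. Both of its *Eya1*cKO libraries were below the controls, but it missed the threshold (log2 change -0.70, edgeR adjusted *P* = 0.0771), which DESeq2's test let it pass (adjusted *P* = 0.0373).

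Chromatin assembly factor 1 deposits histones on newly copied DNA, and both of its large subunit genes fell. *Chaf1a* was at 126 and 135 CPM in control 1 and 2, against 85.7 and 68.3 CPM in *Eya1*cKO 1 and 2, with -0.75 (SE 0.14, edgeR adjusted *P* = 0.0218). *Chaf1b* was at 69.4 and 69.2 CPM in control against 45.3 and 42.98 CPM in *Eya1*cKO libraries, with -0.65 (SE 0.15, edgeR adjusted *P* = 0.0441). Of the exonic length of *Chaf1a*, 52.5% is shared with *Ubxn6* on the opposite strand. Of the 53 genes, 20 share some exonic length with another gene, 17 of them with one on the opposite strand.

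**Figure D4:**
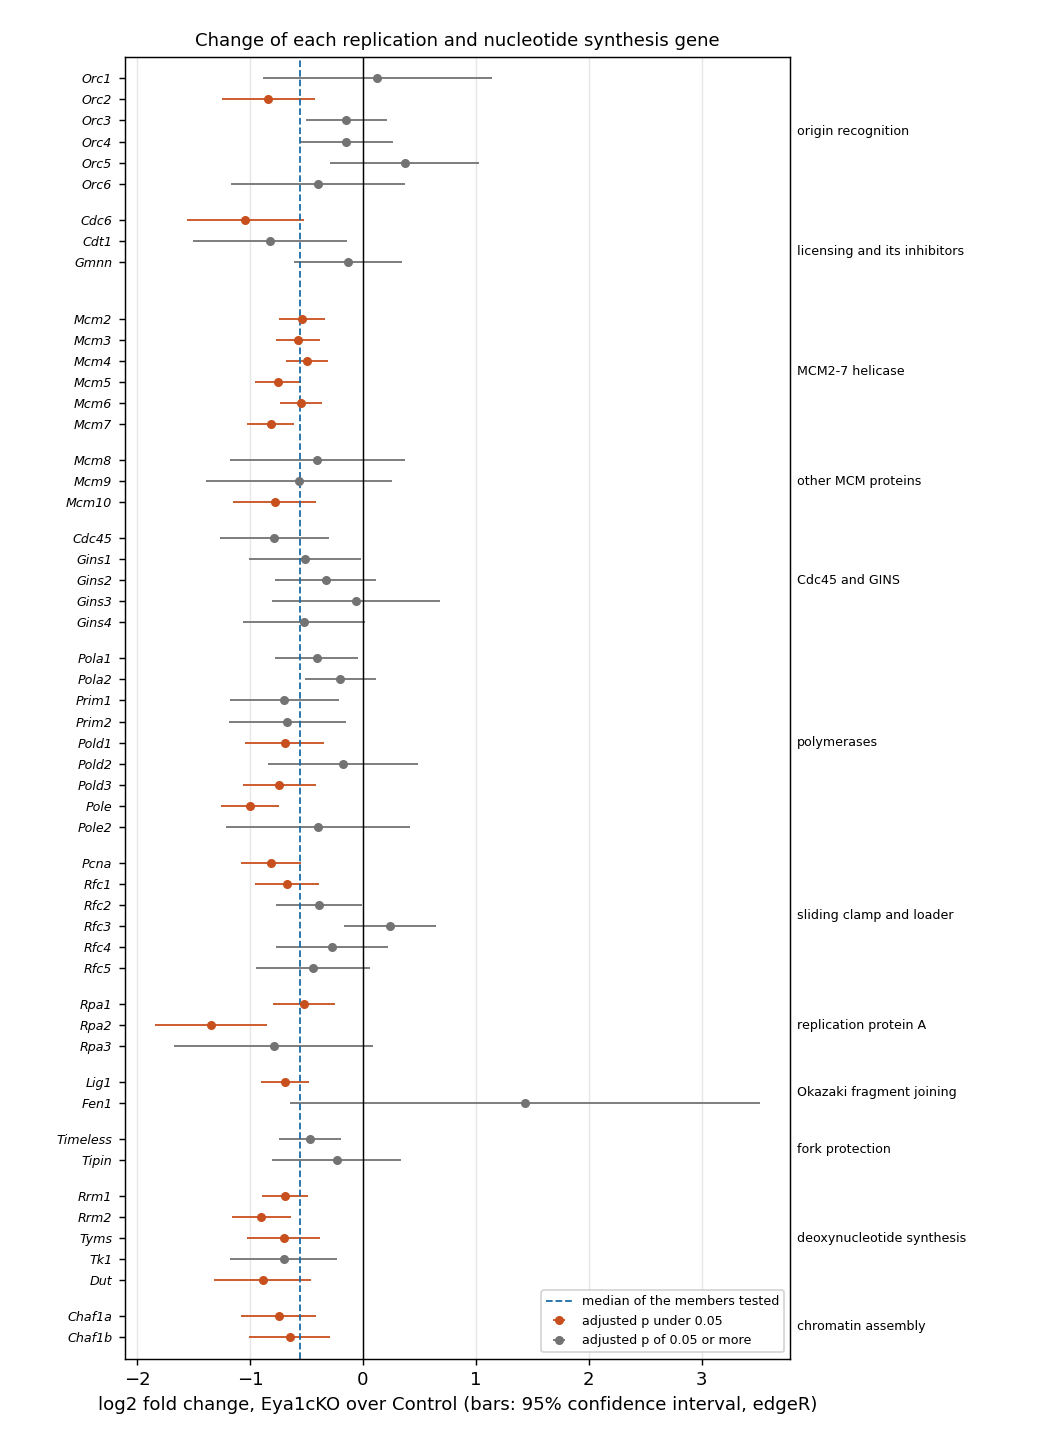
Log2 fold change of *Eya1*cKO over control for the 52 genes tested, grouped by role, with 95% confidence intervals from edgeR, orange where the adjusted *P* was under 0.05 and grey otherwise; the dashed line is the median of the 52. All 6 helicase genes and both chromatin assembly genes are orange, and *Orc1*, *Orc5*, *Rfc3* and *Fen1* are the 4 genes to the right of 0.

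Other genes of the same pathway were counted from lists of named genes. Of all genes tested, 4.41% were called lower and 5.15% higher. Of 38 further replication genes, 37 could be tested, 19 fell and 0 rose, with a median log2 fold change of -0.56. The 3 with the smallest *P* were *Nasp*, a histone chaperone, at -1.02 (edgeR adjusted *P* = 0.00117), *Top2a*, the topoisomerase of dividing cells, at -0.67 (edgeR adjusted *P* = 0.00209), and *Uhrf1*, which brings Dnmt1 to copied DNA, at -0.72 (edgeR adjusted *P* = 0.00452). The 10 of 14 fork factors that fell included *Wdhd1*, *Dna2* and *Clspn*. The positive values belonged to *Lrwd1* and *Dscc1* (0.11 and 0.070), and neither passed. Of 34 further nucleotide synthesis genes 12 fell and 0 rose, with a median of -0.51. *Cad*, which carries out the first steps of pyrimidine synthesis, was at 317 and 315 CPM in control against 137 and 158 CPM in *Eya1*cKO libraries, with -1.11 (SE 0.097, edgeR adjusted *P* = 0.00163). *Ctps* and *Ppat*, the committed steps towards CTP and the purine ring, had -0.88 and -0.99 (edgeR adjusted *P* = 0.00982 and 0.0124). *Ctps2*, *Impdh1* and *Tk2* had the positive values of smallest *P*, 0.60, 0.39 and 0.16, and none passed (adjusted *P* from 0.13 to 0.843 by edgeR). Unadjusted *P* under 0.05 with a positive sign occurred for 0 and 1 gene of these 2 lists, and DESeq2 called 0 higher in both. Without either control the calls in both lists were lost in edgeR, and with 1 *Eya1*cKO library left out more genes fell and a few rose. Over all genes tested the calls also became far fewer and far more in these fits. These lists were described by counts and medians, and no difference between them and the 53 genes was tested.

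Between control 1 and control 2 0 of the 52 genes tested differed by more than 2-fold, whereas between *Eya1*cKO 1 and *Eya1*cKO 2 the 8 genes *Orc1*, *Orc6*, *Cdt1*, *Mcm8*, *Mcm9*, *Pold2*, *Rpa3* and *Fen1* did, by 2.09-fold (*Pold2*) to 5.23-fold (*Fen1*). None of the 8 passed the test, and *Orc6*, *Pold2* and *Rpa3* were higher in *Eya1*cKO 1 while the other 5 were higher in *Eya1*cKO 2. The sign of 7 genes, none of which had passed, turned when 1 library was left out: *Orc1*, *Orc6*, *Mcm8*, *Gins3*, *Pold2*, *Fen1* and *Tipin*. With 2 libraries per genotype an exact permutation test of a single value cannot give a *P* below 0.333, so single genes were judged by edgeR's fit across all genes.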

How the data were processed

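The authors mapped single-end reads of random-primed strand-specific libraries to mm10 with HISAT2 and deposited unnormalized HTSeq-count read counts per Ensembl gene for 2 control and 2 *Eya1*cKO libraries; program versions and the strand setting are not given in the sources used here. Reads on no gene (13.9% and 12.9% in control, 22.7% and 20.9% in *Eya1*cKO) and other unassigned reads were left out. Of 52636 identifiers, 52403 had a symbol.

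Counts went through edgeR 4.0.16 under R 4.3.3: filterByExpr (minimum count 10), TMM (factors 0.9868 to 1.019), and glmQLFit and glmQLFTest (legacy = FALSE) on genotype, with Benjamini-Hochberg adjustment over 19041 genes at 0.05. SE is the absolute log2 fold change over the root of F. The limit of 3 counts covers counting error only. Coordinates, exonic lengths and overlaps came from GENCODE M21 (GRCm38), a later release than the one counted on.

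The genes and lists were chosen with earlier results of these data known. By rule, per-library values were given for up to 4 genes of smallest *P* per role that passed and for genes of opposite sign; outside the 53, the 3 lowest *P* values per direction in each further list, *Rrm2b*, *Top2a*, *Mki67* and *Eya1* were named, and 1 further gene of that rule is not reported here. Other per-library values and names were added after the values were seen. Alternatives were DESeq2 1.42.0 (size factors, Wald test), library totals, other low-count filters, a robust and a legacy fit, a replicate block, each library left out, and thinned control counts.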

Additional observations from a re-analysis of the deposited data

How the results depend on the processing

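Of the 23 genes that fell, 16 passed in every fit on all 4 libraries without a replicate block. The other 7 (*Orc2*, *Cdc6*, *Mcm10*, *Pold1*, *Rpa1*, *Dut* and *Chaf1b*) lost the call in 1 or more of the fits without the low-count filter, with the legacy method, with library totals alone or with thinned controls, and kept their direction. The count of falls, with that over all genes, was 16 (507 of 31192) without the low-count filter, 17 (515 of 19041) with the legacy method, 20 (573 of 18031) with thinned controls, 25 (1107 of 14490) with 10 counts in every library and 27 (1294 of 19702) with DESeq2's Wald test, against 23 (839 of 19041). That test also called 1 gene higher, *Gmnc*, whose reads came from 1 library. With library totals alone the median log2 fold change was -0.52, and the median of all genes moved from 0.016 to 0.054. With the replicate block 10 genes fell, while over all genes the falls went from 839 to 263 and the rises from 981 to 358; libraries of the same number share only that number (correlation of their deviations 0.0071 over 19041 genes), and the block leaves 1 residual degree of freedom. With each library left out the falls ranged from 0 to 38, the rises from 0 to 4 and the median from -0.63 to -0.57; a lone library was assumed to vary like the other genotype. The 4 rises, *Orc1*, *Orc5*, *Gmnc* and *Fen1*, came without *Eya1*cKO 1. The sign turned in 7 genes, whose log2 changes ranged over these 4 fits from -0.65 to 0.71 (*Orc1*), -1.27 to 0.034 (*Orc6*), -1.03 to 0.098 (*Mcm8*), -0.37 to 0.23 (*Gins3*), -0.86 to 0.20 (*Pold2*), -0.14 to 2.31 (*Fen1*), -0.79 to 0.086 (*Tipin*); the cause was not tested.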

Other observations

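Genes of mitosis, which act after replication in the same cycle, were also lower in *Eya1*cKO. Of 19 such genes listed for comparison, 9 fell and 0 rose in edgeR, where 4.41% of all genes tested were called lower and 5.15% higher. At an unadjusted *P* under 0.05 in edgeR 12 were lower and 0 higher, against 14.6% and 14.2% of all genes tested. With DESeq2 10 fell and 0 rose. The number that fell changed with each library left out, as it did over all genes tested. The median log2 fold change was -0.45, and the summed level was 72.7% of control. *Mki67*, the proliferation antigen, was at 1028 and 982 CPM in control against 748 and 777 CPM in *Eya1*cKO libraries, with -0.40 (SE 0.059, edgeR adjusted *P* = 0.00979). Besides *Mki67*, the genes *Bub1b*, *Cenpe*, *Cenpf*, *Tpx2* and *Birc5* fell (-0.81, -0.45, -0.54, -0.52 and -0.76). Among genes of mitotic kinases, *Plk1*, *Bub1* and *Aurkb* fell (-0.79, -1.02 and -0.64), and *Aurka*, *Ttk* and *Cdk1* did not pass (-0.38, -0.35 and -0.095). *Ccnb2*, *Nusap1* and *Prc1* did not pass either, with log2 fold changes of -0.15, -0.21 and 0.003, and these 6 had 95% intervals that included 0. Of the other 4 that did not pass, *Kif11* (-1.95) also had such an interval. It had 98 and 49 reads in control against 13 and 8 in *Eya1*cKO libraries, the fewest of the 19, so its change is uncertain. The intervals of *Ccnb1* (-0.87), *Cdc20* (-0.45) and *Kif20a* (-0.30) lay below 0. These genes were named after their values were seen. E2F letters were found in the promoters of 1 of 16 mitosis genes with a promoter, 9 of 32 further replication genes and 2 of 29 further nucleotide genes, and CCAAT boxes in 14, 16 and 12 of the same sets.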
